A study of Mus musculus with 8 samples.

Results

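The muscle atrophy ligases and the FoxO factors that control them were followed through 8 genes on arrays of C2C12 myoblasts in which the long non-coding RNA Pvt1 had been silenced. The genes were taken by symbol, in a choice made with earlier results of these data known: 4 ubiquitin ligase genes (Fbxo32, Trim63, Fbxo30 and Fbxo40), 3 forkhead genes (Foxo1, Foxo3 and Foxo4) and Klf15. They were covered by 15 of the 56605 probes on the array that were not controls, and 5 of the genes had more than 1 probe. All cells were proliferating C2C12, an established mouse myoblast line, at passage 10, and all had been transfected with Lipofectamine 2000 and antisense LNA GapmeRs, oligonucleotides that lead to cleavage of a paired RNA. In the 4 silenced samples the labels name the GapmeRs Pvt1_1 and Pvt1_3, without saying whether each culture received both, and in the 4 negative control (Mock) samples they were negative control GapmeRs. The samples are labelled as biological replicates 1 to 4 of each group, with no statement of separate cultures, so p-values measure only the spread between these samples.

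In skeletal muscle, ubiquitin ligases mark proteins for degradation by the proteasome, and Fbxo32 (atrogin-1) and Trim63 (MuRF1) are the classical markers of muscle wasting. Fasting, denervation and glucocorticoids raise their transcription through the FoxO factors, which Akt holds in the cytoplasm when insulin or IGF-1 signaling is active. The glucocorticoid receptor adds to this both directly and through the transcription factor Klf15. These ligases belong mainly to differentiated fibers and myotubes, while the cells measured here were undifferentiated myoblasts, which limits them as a model of atrophy.

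The sequences that the silencing and the main probe results rest on are given first. Both GapmeRs were 16 bases long, and their longest run complementary to any of the 15 probes was 5 bases for Pvt1_1 and 6 bases for Pvt1_3. No probe on the array held the full complement of either. They read, 5′ to 3′:
Pvt1_1: accgtagtagagttaa
Pvt1_3: agtcaacgcttcacat

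Each array probe was 60 bases long. The probes of Fbxo30 and of the middle of Foxo3 are shown because they were called lower, the 5′ probe of Foxo3 because it gave almost no signal and had the highest GC content of the 15 (70.0%, against a median of 41.7% over all probes), and 1 Trim63 probe because it gave none on any array. Their own GC contents were 40.0%, 45.0% and 45.0% for Fbxo30, the middle of Foxo3 and Trim63. Positions count along the transcript of the probe and coordinates refer to mouse build mm9, as in the file headers:
Fbxo30, position 2182, chromosome 10, 11011329 to 11015032, plus strand, across a splice junction: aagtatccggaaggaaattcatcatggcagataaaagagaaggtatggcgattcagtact
Foxo3, position 2242, chromosome 10, 41916349 to 41916408, minus strand: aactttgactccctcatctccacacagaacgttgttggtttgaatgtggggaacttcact
Foxo3, position 544, chromosome 10, 41994961 to 41995020, minus strand: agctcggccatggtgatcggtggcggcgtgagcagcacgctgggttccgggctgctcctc
Trim63, position 1016, chromosome 4, 133881557 to 133881616: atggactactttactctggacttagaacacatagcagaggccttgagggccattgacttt

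Values are log2 of the background-corrected spot signal after quantile normalization between arrays. A spot not positive and significant against its local background was set to missing. A stricter flag marks a spot as well above background. A probe needed 3 of 4 values per group to be tested, which 28649 had, and these were fitted with limma and called at an adjusted p under 0.05. Silenced replicate 4 was the dimmest array, with 51.6% of spots positive and significant against 58.8% to 62.5% on the other 7. Control replicate 3 had the lowest mean correlation with its own group (0.964, against 0.978 to 0.983 for the other arrays). Over all probes 79.3% of calls were lower in silenced cells and the median change was -0.19. With cyclic loess in place of quantile normalization these were 48.7% and 0.03, without masking of dim spots 49.0% and 0.0067, and without silenced replicate 4 58.3% and -0.019, so changes relative to the median of all probes are also given.

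Pvt1 was examined first, as the target. Its brightest probe (chromosome 15, 62081020 to 62081079) read 9.65, 9.79, 10.31 and 9.70 in control replicates 1 to 4 and 7.09, 6.69, 7.85 and 6.39 in silenced replicates 1 to 4. Every silenced value lay below every control value. The change was -2.86 (SE 0.32, limma adjusted p 0.000682), which left 13.8% of the control signal. For a second probe (62074057 to 62074116) the controls were at least 5.41-fold higher, and 3 further Pvt1 probes were near background throughout.

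The labeled cell type was checked against its markers. Of 6 myoblast markers, 5 were well above background on all 8 arrays, and Myf5 was not. Their summed linear signal was 165279 to 182733 in controls and 119110.1 to 146984 in silenced samples. Of 8 myotube markers, 6 were well above background on all controls and 6 on all silenced arrays, with Myog short of this on 1 control and Tmem8c on 2 silenced arrays, and with sums of 4723 to 6148 and 3772 to 4434. Of 5 adipocyte markers, 2 were well above background on all controls and 3 on all silenced arrays, with sums of 353 to 523 and 441 to 745, and the defining genes Adipoq and Cfd on none. Of 10 liver markers, 1 was well above background on all controls and 6 on all silenced arrays, with sums of 871 to 1709 and 3370 to 4622. Alb was among those well above background on no control and on all 4 silenced arrays, and Apoa1 and Fga were on none. The part of these markers in the results below was not tested. In bulk RNA, fewer cells of a type and less RNA per cell cannot be told apart.

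The first question was which of the 8 genes the myoblasts expressed at a measurable level. Fbxo32, Fbxo30, Foxo1 and Foxo3 each had at least 1 probe well above background on all 8 arrays, 5 probes in all. Foxo4, the family member on the X chromosome, and Klf15 had none on any array. Trim63 and Fbxo40 each had 1 probe well above background on a single array. In all, 7 of the 15 probes were well above background on no array, and 4 were not even positive and significant on any. The number of probes that could be tested was 7, for 5 of the 8 genes, and Trim63, Foxo4 and Klf15 could not be tested.

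**Figure D1:**
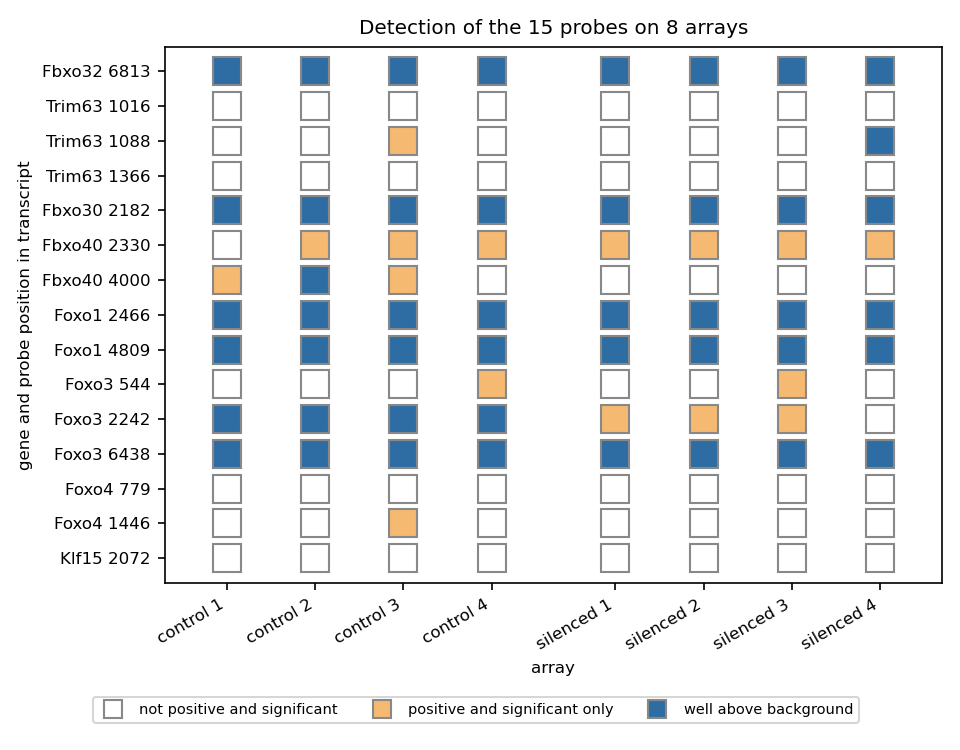
Detection of the 15 probes on the 8 arrays. Rows are probes with their gene and transcript position, columns are the arrays, and the shade separates spots well above background, spots only positive and significant, and spots that were neither. The 5 probes of Fbxo32, Fbxo30, Foxo1 and Foxo3 that were well above background on every array stand apart from those of Trim63, Foxo4 and Klf15.

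Of the 7 tested probes, 2 were called lower in silenced cells (28.6%, against 18.4% of all 28649 probes) and 0 were called higher, against 4.79%. In either direction 23.2% of all probes were called. At an unadjusted limma p under 0.05 the counts were the same 2 lower and 0 higher, against 27% and 9.34% of all probes, and the methods' t-test with Benjamini-Hochberg adjustment also gave 0 higher, against 1.98%. The groups did not overlap for the same 2 probes, against 28.2% of all tested probes. With 7 probes these shares do not set the 8 genes apart from the array as a whole. With cyclic loess 3 of the probes, of Fbxo32, Foxo1 and Foxo3, were called higher, and the same 2 were called lower, while 19.1% of all probes were called higher and 18.1% lower under that setting.

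**Figure D2:**
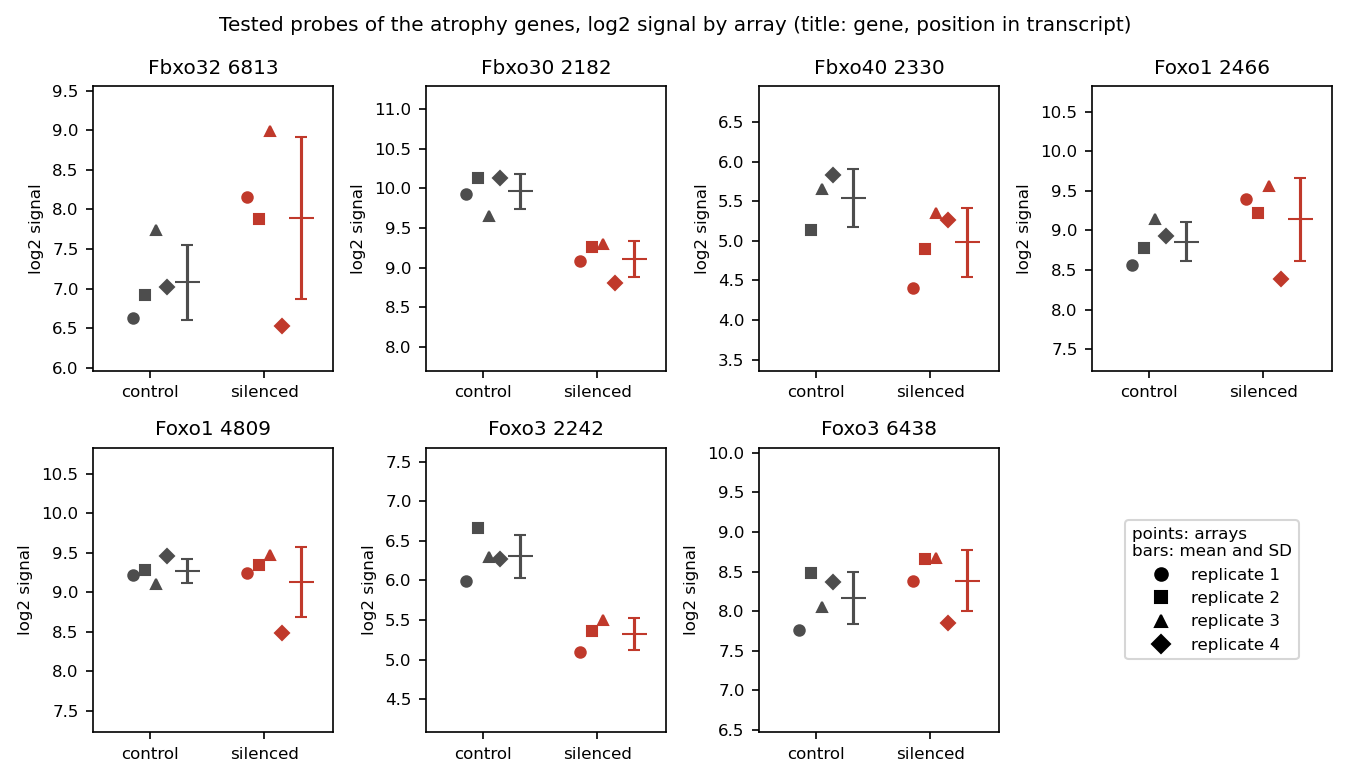
Log2 normalized signal of the 7 tested probes, 1 panel per probe, with a point for each array (the shape gives the replicate) and bars for the group mean and SD. Fbxo30 and the middle probe of Foxo3 show silenced values below all control values, while the groups overlap for the other probes. Without masking of dim spots Fbxo30 overlaps and Foxo1 at position 2466 and Foxo3 at position 6438 do not.

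Among the 4 ligase genes, Fbxo30 was the one called lower, at its only probe (position 2182), with no second probe to compare. It encodes the F-box protein of the MUSA1 ligase, which has been described as a FoxO- and BMP-dependent atrophy gene in muscle. Its probe read 9.93, 10.13, 9.65 and 10.13 in controls 1 to 4 and 9.09, 9.26, 9.30 and 8.80 in silenced samples 1 to 4. The lowest control was above the highest silenced sample. Without masking silenced replicate 4 read 9.60 and control replicate 3 read 9.52, so the groups then overlapped, at a change of -0.59 (limma adjusted p 0.042). Means were 9.96 ± 0.23 and 9.11 ± 0.23 (SD, n = 4), a change of -0.85 (SE 0.21, 95% interval -1.32 to -0.39, limma adjusted p 0.0172). This left 55.4% of the control signal, and the change relative to the median of all probes was -0.66. By an exact two-sided permutation test p was 0.0286, which is the lowest value possible with 4 against 4 samples.

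The fall of Fbxo30 had the same direction within each row of the slide that held the arrays, at -0.82 and -1.02. Each row held 1 array of one group and 3 of the other (3 controls and 1 silenced in the first, 1 control and 3 silenced in the second), so each value rests on a single array on one side. With the row as a block the limma adjusted p was 0.0611. Without control replicate 2 or control replicate 4 the change was -0.80 in both cases, with adjusted p-values of 0.062 and 0.0646.

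Fbxo32, which encodes the F-box protein atrogin-1, did not pass the test. Its probe lies at position 6813 (chromosome 15, 58007497 to 58007556) and read 6.63, 6.92, 7.74 and 7.02 in controls and 8.15, 7.88, 8.99 and 6.53 in silenced samples. Silenced replicates 1 to 3 were above all controls, and silenced replicate 4, the dimmest array, was below all of them. Without masking of dim spots that array read 7.49, above 3 of the 4 controls, so its place depended on the masking. Means were 7.08 ± 0.47 and 7.89 ± 1.02 (SD, n = 4), a difference of 0.81 (SE 0.47, 95% interval -0.24 to 1.87, limma adjusted p 0.248). Relative to the median of all probes the difference was 1.00. The exact two-sided permutation p was 0.229. Without silenced replicate 4 the difference was 1.28 and passed the test (limma adjusted p 0.025). With cyclic loess, and all 8 arrays, it was 1.22 and also passed (limma adjusted p 0.0163). Without masking it was 1.16 (limma adjusted p 0.062) and it was 1.18 in the authors' series table (limma adjusted p 0.0588).

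Trim63 encodes MuRF1, a RING ligase of the sarcomere. Its probes at positions 1016 and 1366 were positive and significant on no array. The third, at position 1088 (chromosome 4, 133873219 to 133873278), read 4.49 in control replicate 3, not well above background, and 6.59 in silenced replicate 4, where it was. It had no value on the other 6 arrays, so no comparison could be made.

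Fbxo40 encodes a muscle-specific F-box protein known to act on Irs1. Its probe at position 2330 (chromosome 16, 36966287 to 36966346) read 5.13, 5.66 and 5.84 in control replicates 2 to 4 and 4.40, 4.89, 5.35 and 5.26 in silenced samples. These values overlap, none was well above background, and the computed difference of -0.56 (SE 0.30, limma adjusted p 0.214) turned to 0.21 without masking of dim spots, so no fold is given. The other probe, at position 4000, read 5.80, 7.64 and 6.03 in control replicates 1 to 3, well above background in control replicate 2 alone. It had no value in control replicate 4 or in any silenced sample and was not tested.

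The FoxO factors are the transcriptional side of this pathway. Foxo1 was measured by a probe at position 2466 (chromosome 3, 52150946 to 52151005), with 8.57, 8.78, 9.15 and 8.93 in controls and 9.39, 9.22, 9.57 and 8.39 in silenced samples. Silenced replicates 1 to 3 were above all controls and silenced replicate 4 below all of them. Without masking that array read 9.23, above all controls, so the groups did not overlap under that setting. Means were 8.86 ± 0.25 and 9.14 ± 0.52 (SD, n = 4). They differed by 0.47 relative to the median of all probes. The difference itself was 0.28 (SE 0.28, 95% interval -0.35 to 0.91, limma adjusted p 0.513). With cyclic loess it was 0.59 and passed the test (limma adjusted p 0.00734), as it did in the authors' series table (0.59, limma adjusted p 0.0111) and without masking (0.58, limma adjusted p 0.012).

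The second Foxo1 probe lies further 3′, at position 4809 (52153289 to 52153348). It read 9.22, 9.28, 9.10 and 9.46 in controls and 9.24, 9.34, 9.47 and 8.48 in silenced samples, which overlap, with silenced replicate 4 the lowest, while without masking that array read 9.31 and was above all controls. The difference was -0.13 (SE 0.25, 95% interval -0.69 to 0.42, limma adjusted p 0.748) and changed sign with cyclic loess (0.17) and without silenced replicate 4 (0.09). Relative to the median of all probes it was 0.06. The interval covers both a fall and a rise, so an equal level in both groups is not shown.

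Foxo3 is the family member best known for driving both ligase and autophagy genes in muscle, and its 3 probes did not behave alike. The probe in the middle of the transcript (position 2242) read 5.99, 6.66, 6.30 and 6.27 in controls and 5.10, 5.36 and 5.50 in silenced replicates 1 to 3, with no value in silenced replicate 4. Every silenced value lay below every control value. Means were 6.31 ± 0.27 (n = 4) and 5.32 ± 0.20 (SD, n = 3), a change of -0.98 (SE 0.24, 95% interval -1.52 to -0.44, limma adjusted p 0.0189) and of -0.79 relative to the median of all probes. Because the probe was well above background on all 4 controls and on no silenced array, the fold is a bound: controls were at least 1.10-fold higher. The call was lost without control replicate 2 (-0.86, limma adjusted p 0.0636), without control replicate 4 (-0.99, limma adjusted p 0.0563), with the slide row as a block (limma adjusted p 0.0605) and with normexp (-0.41, limma adjusted p 0.0901).

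The most 3′ Foxo3 probe (position 6438, 41901997 to 41902056) was the brightest of the 3. It read 7.77, 8.48, 8.05 and 8.37 in controls and 8.38, 8.65, 8.67 and 7.85 in silenced samples. The groups overlap, with silenced replicates 2 and 3 above all controls, while without masking all 4 silenced samples (8.31 to 8.74) were above the controls (7.84 to 8.25). Means were 8.17 ± 0.32 and 8.39 ± 0.38 (SD, n = 4). They differed by 0.41 relative to the median of all probes. The difference itself was 0.22 (SE 0.26, 95% interval -0.36 to 0.80, limma adjusted p 0.584). With cyclic loess it was 0.60 and called higher (limma adjusted p 0.0163), as it was in the authors' series table (0.54, limma adjusted p 0.0202) and without masking (0.54, limma adjusted p 0.027), so the direction called for Foxo3 depended on the probe. The 5′ probe at position 544 gave 4.65 in control replicate 4 and 4.10 in silenced replicate 3, neither well above background, and no other value.

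The difference between the probes of a gene was compared on each array, since it cancels shifts of the whole array. For Foxo3 the middle minus the 3′ probe was -1.77, -1.82, -1.75 and -2.10 in controls and -3.27, -3.29 and -3.17 in silenced replicates 1 to 3. The groups did not overlap, with means of -1.86 ± 0.16 (n = 4) and -3.25 ± 0.07 (SD, n = 3) and a computed difference of -1.38. Because the middle probe was well above background on no silenced array, this is not an exact difference: with that probe at its bound on the silenced arrays the difference was -0.36 (exact two-sided permutation p 0.229). Without the bound, an exact two-sided permutation test gave p = 0.0286, the lowest value possible with 4 against 3 samples, and 0.0571 after adjustment over the 2 genes compared. For Foxo1 the same quantity was -0.65, -0.49, 0.05 and -0.53 in controls and 0.15, -0.13, 0.10 and -0.09 in silenced samples, with control replicate 3 inside the silenced range. It differed by 0.41, in the other direction, with an exact two-sided permutation p of 0.0857, also 0.0857 when adjusted. Without control replicate 3 it differed by 0.56 (exact two-sided permutation p 0.0286).

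Such a difference between probes was common on these arrays. Among 4996 genes with tested probes at least 1000 bases apart, the more 5′ probe of the pair changed further downward in 67.2%. The median difference was -0.39, with quartiles of -0.98 and 0.19. The Foxo1 value lay above the upper quartile, and the Foxo3 value, which is not exact, is not placed among them. These values describe the probes. Whether RNA quality or labeling differed between the groups was not tested.

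**Figure D3:**
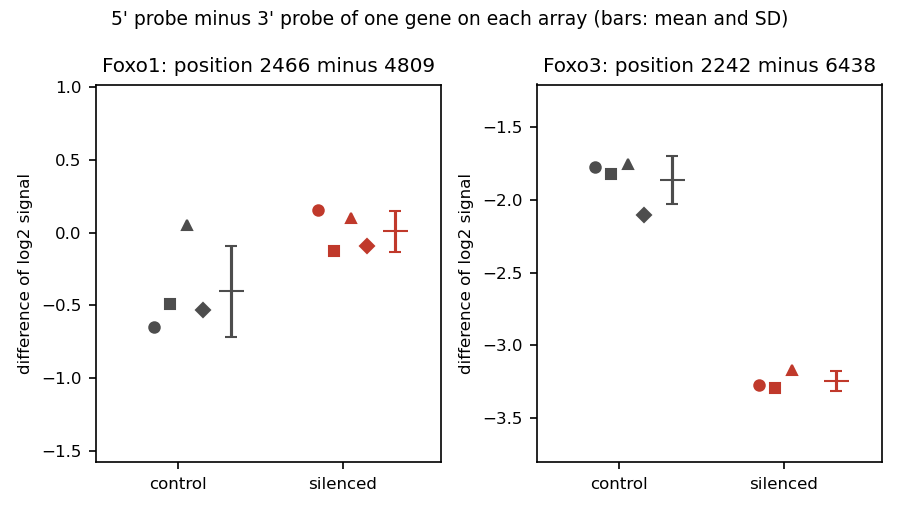
Difference of log2 signal between a 5′ and a 3′ probe, for Foxo3 (positions 2242 and 6438) and Foxo1 (positions 2466 and 4809) on each array, with a point for each array and bars for the group mean and SD. The 3 silenced samples of Foxo3 with a value lie between -3.29 and -3.17, below all 4 controls, with the Foxo3 probe at position 2242 not well above background in any of them, while for Foxo1 1 control lies among the silenced samples.

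Foxo4 had no positive and significant signal at position 779 (chromosome X, 98451524 to 98451583) and a single value of 4.38, in control replicate 3, at position 1446. Klf15, the Krüppel-like factor that the glucocorticoid receptor induces in muscle, had none at its only probe (chromosome 6, 90424982 to 90425040). At this signal over background no difference was detectable for these genes, and these values set no limit on their RNA.

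**Figure D4:**
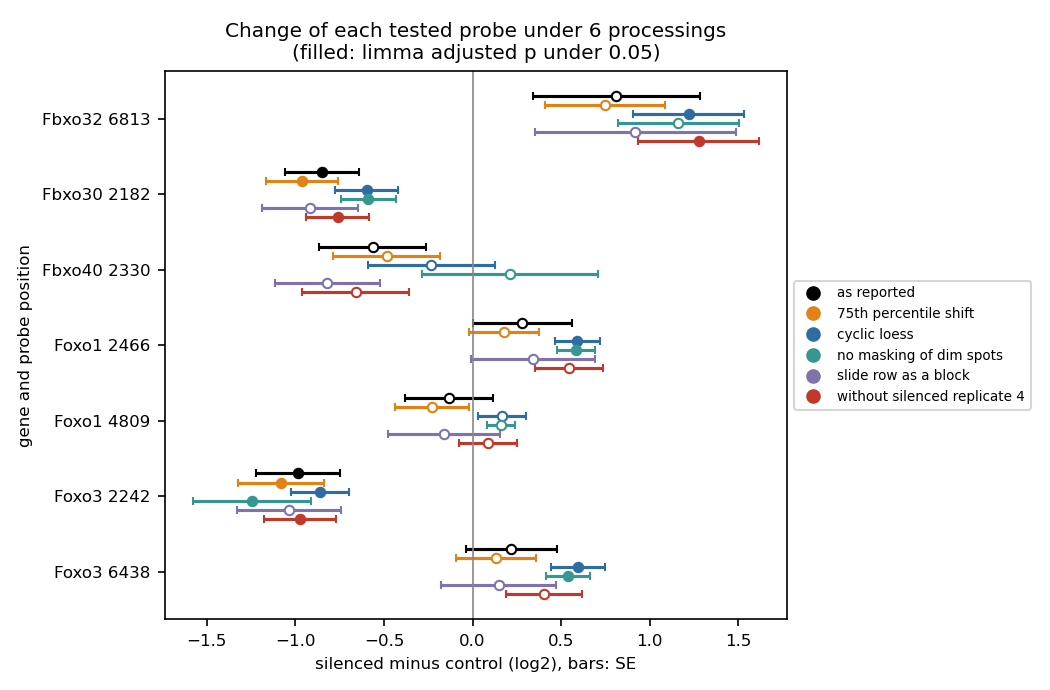
Silenced minus control difference (log2, bars SE) of the 7 tested probes as reported and under 5 alternatives, with filled points for calls. The probes of Fbxo30 and the middle of Foxo3 lie below 0 in all of them. Those of Fbxo32, Foxo1 at position 2466 and Foxo3 at position 6438 are higher with cyclic loess and without masking than in the main fit, and Foxo1 at position 4809 and Fbxo40 at position 2330 change sign between settings.

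The genes that work with these ligases and factors were followed in 7 lists of 101 genes, chosen with earlier results of these data known. Each gene was represented by its brightest probe, and 96 could be tested. Of these 5 were called higher (5.21%) and 10 lower (10.4%), against 6.59% and 13.2% of the 15444 gene names tested (19.8% in either direction), and 81 were not called. Their median change was -0.02, against -0.05 over all gene names. The lists together therefore held calls at about the rate of the array. With cyclic loess 23 of the 96 were called higher, again near the share of all gene names under that setting (24.6%).

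Of 12 tested muscle ubiquitin ligases outside the 8 genes, 1 was called higher and 2 lower, against 6.59% and 13.2% of all gene names. The median change of the list was -0.16. With cyclic loess the counts were 4 and 3, and 24.6% of all gene names were called higher and 13.3% lower. Trim54 (MuRF3), a relative of MuRF1 that binds microtubules, read 8.61, 8.99, 9.37 and 9.27 in controls and 11.11, 10.98, 11.12 and 10.48 in silenced samples. All silenced values were above all controls, and it rose by 1.86 (SE 0.24, limma adjusted p 0.00119). Stub1 (CHIP), a co-chaperone ligase for misfolded proteins, read 14.50, 14.62, 15.02 and 14.66 in controls and 13.52, 13.73, 13.10 and 13.59 in silenced samples. It changed by -1.21 (SE 0.22, limma adjusted p 0.00444), again without overlap. Trim55 (MuRF2), the other MuRF relative, was well above background on 3 controls and on no silenced array, so its level in silenced cells has only an upper bound. The computed difference was -0.64 (SE 0.33, limma adjusted p 0.195), with overlap between the groups, and is not an exact change. The other gene called lower was the ubiquitin chain elongation factor Ube4b, at -0.77, below the size fixed for naming and named here to complete the count. Its call was lost with the slide row as a block (limma adjusted p 0.0878), and without control replicate 2 (0.0573) or 4 (0.0583).

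Fbxo32, Fbxo30 and Fbxo40 proteins are F-box proteins, and atrogin-1 and MUSA1 act in SCF complexes built on a cullin. Of 10 genes of the SCF core and ubiquitin supply, 0 were called higher and 2 lower by limma, against 6.59% and 13.2% of all gene names, with a median of -0.30. At an unadjusted limma p under 0.05, 0 were higher and 4 lower, against 12.5% and 20.2% of all gene names. The methods' t-test with Benjamini-Hochberg adjustment gave 0 higher and 2 lower, against 2.75% and 7.51%. With 10 genes these counts do not set the list apart. Cul1, the cullin scaffold of SCF, read 10.80, 10.94, 11.24 and 10.95 in controls and 9.92, 10.12, 9.66 and 9.66 in silenced samples. It changed by -1.14 (SE 0.20, limma adjusted p 0.00433) without overlap, and a second Cul1 probe, at transcript position 262, by -0.91 (limma adjusted p 0.0239).

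Among 8 tested substrates of the ligases, 2 were called lower and 0 higher by limma, against 13.2% and 6.59% of all gene names. At an unadjusted limma p under 0.05 the counts were also 2 and 0 (20.2% and 12.5% of all gene names), as they were with the methods' t-test after Benjamini-Hochberg adjustment (7.51% and 2.75%). With 8 genes these counts, too, do not set the list apart. Myod1, the myogenic regulator that atrogin-1 is known to target, read 13.66, 13.57, 12.81 and 13.66 in controls and 11.67, 11.80, 11.26 and 11.16 in silenced samples. Des, which encodes the intermediate filament desmin, read 13.98, 14.34, 14.13 and 14.23 in controls and 12.93, 13.22, 12.32 and 12.82 in silenced samples. Neither gene overlapped between the groups. Myod1 changed by -1.95 (SE 0.26, limma adjusted p 0.0013) and Des by -1.35 (SE 0.23, limma adjusted p 0.00374). Both genes are also on the list of myoblast markers and are part of its summed signal, which was lower in silenced samples. Of the other markers on that list, Cdh15 was called lower (-0.86, limma adjusted p 0.0141). Vim (-0.17), Itga7 (-0.18) and the dim Myf5 (0.94) were not called (limma adjusted p 0.561, 0.548 and 0.053). The arrays measure RNA and hold nothing on the degradation of these proteins.

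Of 15 genes that regulate FoxO factors or belong to the family, 1 was called higher and 2 lower. These are 6.67% and 13.3%, against 6.59% and 13.2% of all gene names. The median change of the list was -0.16. Foxo6, a FoxO factor that is held in the nucleus more than its relatives, read 9.75, 10.11, 10.38 and 10.09 in controls and 11.23, 11.46, 11.74 and 10.99 in silenced samples. All silenced values were above all controls, and it rose by 1.27 (SE 0.23, limma adjusted p 0.00489). It was the FoxO gene that was called higher, although it was not among the 8 genes chosen. Crebbp, the acetyltransferase CBP that acts on FoxO proteins, changed by -1.31 (SE 0.22, limma adjusted p 0.00324), from 11.59 to 12.02 in controls to between 10.15 and 10.84 in silenced samples. Its other 2 probes, at transcript positions 2899 and 4337, were called lower too.

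Of the kinases that phosphorylate FoxO proteins, Akt1 was lower at all 3 of its probes, while the probes of Akt2 differed. Akt1 read 15.21, 15.21, 15.60 and 15.41 in controls and 14.57, 14.63, 14.41 and 14.44 in silenced samples, a change of -0.84 (SE 0.19, limma adjusted p 0.011). Its other 2 probes, at transcript positions 367 and 844, changed by -1.12 and -0.99. The groups did not overlap, and the call of the brightest probe was lost with the slide row as a block (limma adjusted p 0.0633). Akt2, the isoform most tied to insulin action in muscle, differed by 0.06 (limma adjusted p 0.850) at its brightest probe. At its other 2 probes, at transcript positions 1052 and 1369, it changed by -1.86 (limma adjusted p 0.00428) and -1.04 (limma adjusted p 0.0156). Sgk1, a kinase with the same FoxO sites, differed by -0.16 (limma adjusted p 0.726), by 0.03 with cyclic loess, and by -0.43 to 0.03 over 18 alternatives.

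Of 25 known FoxO target genes, 2 were called higher and 1 lower (8% and 4%), against 6.59% and 13.2% of all gene names. The median change of the targets was 0.42, against -0.05 over all gene names. At an unadjusted limma p under 0.05 the counts were 7 higher and 3 lower, against 12.5% and 20.2% of all gene names. The methods' t-test with Benjamini-Hochberg adjustment gave 1 higher and 0 lower, against 2.75% and 7.51% of all gene names. Txnip, the thioredoxin-interacting protein that restrains glucose uptake, read 10.48, 10.54, 10.47 and 10.83 in controls and 12.15, 12.34, 12.01 and 11.88 in silenced samples. It rose by 1.51 (SE 0.19, limma adjusted p 0.00112), with no overlap, although its second probe differed by -0.20 (limma adjusted p 0.748). Ccng2, an unusual cyclin linked to cell cycle exit, read 9.09, 8.99, 9.68 and 9.26 in controls and 10.56, 10.49, 10.97 and 9.81 in silenced samples. It rose by 1.20 (SE 0.28, limma adjusted p 0.0138), and the groups came closest between control replicate 3 and silenced replicate 4. With the slide row as a block this call was lost (limma adjusted p 0.0541). A second Ccng2 probe, well above background on no array, differed by 0.06 (limma adjusted p 0.943).

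Irs2, the insulin receptor substrate that FoxO1 induces in fasting liver, read 8.01, 8.28, 8.82 and 8.53 in controls and 7.66, 7.62, 7.70 and 6.64 in silenced samples. It changed by -1.0 (SE 0.29, limma adjusted p 0.0346), opposite to the other named targets. The call was lost with the slide row as a block (limma adjusted p 0.126), and without control replicate 2 (0.0717), 3 (0.0618) or 4 (0.0915) or silenced replicate 1 (0.0528). With cyclic loess 11 of the 25 targets were called higher and 1 lower, and the median was 0.57, while 24.6% of all gene names were called higher and their median was 0.16. Without silenced replicate 4, 8 of 24 were called higher and 2 lower, against 17.0% and 13.1% of all gene names. Fbxo32, a FoxO target itself, passed the test under the same changes of processing.

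The glucocorticoid receptor and Klf15 axis gave 1 gene higher and 1 lower of 12 tested, against 6.59% and 13.2% of all gene names. The median change of the list was 0.13. Ddit4 (REDD1), an inhibitor of mTORC1 that glucocorticoids induce in muscle, read 12.49, 12.35, 12.89 and 12.76 in controls and 14.15, 13.85, 14.14 and 13.77 in silenced samples. It rose by 1.35 (SE 0.21, limma adjusted p 0.00229), without overlap. The receptor gene Nr3c1 differed by 0.04 (limma adjusted p 0.939) at its brightest probe and by 0.18 at another, the first of which turned to -0.04 without control replicate 1. The gene called lower was Bcat2, a transaminase of branched-chain amino acids that Klf15 is known to induce, at -0.81 (limma adjusted p 0.0354). Its call was lost with the slide row as a block (limma adjusted p 0.136), with cyclic loess (0.0508), and without control replicate 2, 3 or 4 or silenced replicate 1 or 3. In the authors' series table and without masking of dim spots, 4 of 13 genes of the list were called higher and 0 lower by limma, against 14.5% and 7.71% of all gene names in the table and 12.95% and 6.51% without masking.

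The upstream atrophy signaling list (myostatin, activin, NF-κB and TWEAK receptor genes among them) had 0 of 14 tested genes called in either direction by limma. Of all gene names 19.8% were called, and the median change of the list was 0.02. At an unadjusted limma p under 0.05, 0 were higher and 2 lower, against 12.5% and 20.2% of all gene names, and the methods' t-test with Benjamini-Hochberg adjustment gave 0 higher and 2 lower, against 2.75% and 7.51%. With cyclic loess 4 were called higher and 1 lower, when 24.6% and 13.3% of all gene names were. Myostatin itself (Mstn), Asb2, Mybpc1, Mybpc2 and Hsd11b1 could not be tested.

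**Figure D5:**
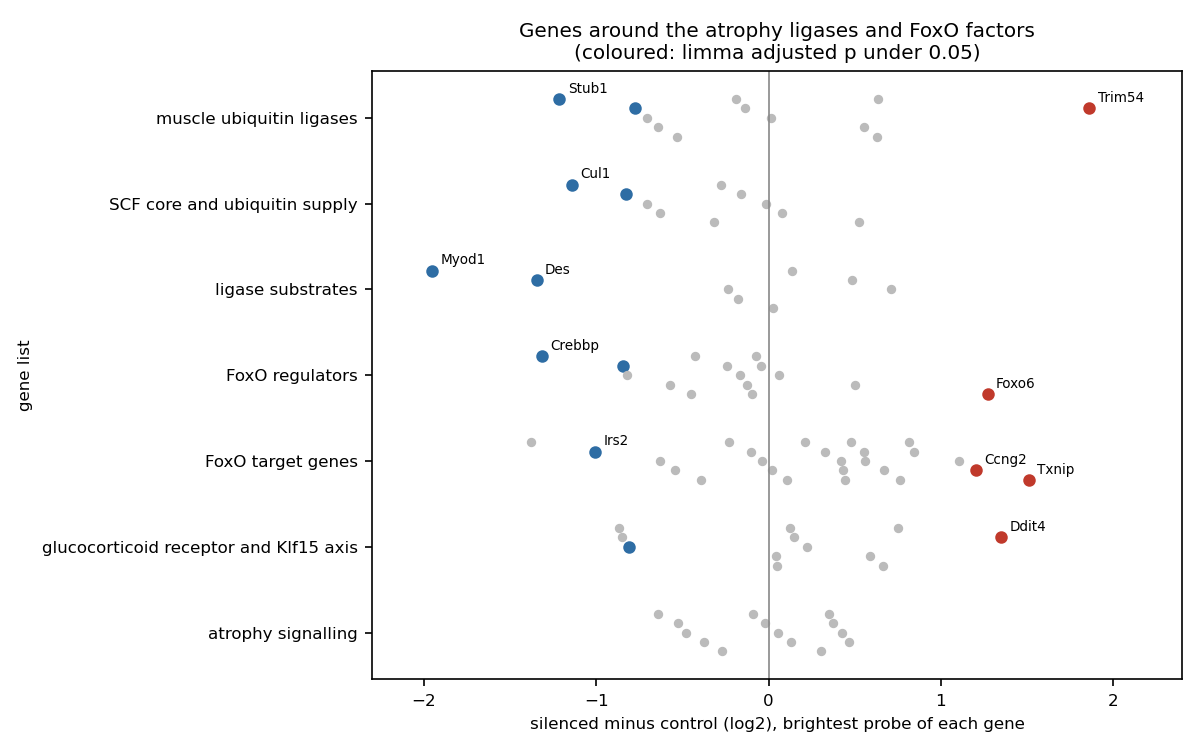
Silenced minus control difference (log2) of the brightest probe of each tested list gene, 1 point per gene, by list. Colored points passed the test, gray points did not, the vertical line marks 0, and the vertical offset within a list only separates points. Trim54, Foxo6, Txnip, Ccng2 and Ddit4 are the genes called higher, and Myod1 has the lowest called value. With cyclic loess 23 list genes were called higher, when 24.6% of all gene names were.

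Promoter sequence was examined for the letters of the FoxO motif GTAAACA, the E-box CACGTG and the glucocorticoid receptor palindrome (GAACA and TGTTC spaced by 3 bases), on both strands, in the 250 bases before each transcription start (RefSeq, GRCm38.p6, a later build than that of the probes). Of 32851 promoters, 3.17% held the FoxO motif, 6.02% the E-box and 0.0396% the palindrome. Of the 8 genes, 6 had an entry. Trim63 held 1 FoxO motif and 1 palindrome, which do not overlap, Klf15 held 2 copies of the E-box, and the windows of Fbxo30, Fbxo40, Foxo1 and Foxo3 held none of the 3. Of 19 FoxO targets with an entry, Bcl2l11 and Txnip held the FoxO motif and 5 held the E-box. A match is a description of letters, not of binding, and no match says only that the letters are not in this window.

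The promoters of Trim63, the 1 with the FoxO motif among the 6 of these genes with an entry, and of Txnip, the called FoxO target with the largest rise, are shown with the motifs in capitals. In Trim63 the palindrome begins 208 bases and the FoxO motif, read on the other strand, 194 bases before the start. In Txnip the FoxO motif begins 121 bases before it:
Trim63, chr4:134314870-134315119, plus strand: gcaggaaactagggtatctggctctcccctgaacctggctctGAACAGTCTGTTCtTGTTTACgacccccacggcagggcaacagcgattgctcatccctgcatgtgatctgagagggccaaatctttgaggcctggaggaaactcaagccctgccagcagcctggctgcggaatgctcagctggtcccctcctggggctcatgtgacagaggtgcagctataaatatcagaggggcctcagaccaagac
Txnip, chr3:96557707-96557956, plus strand: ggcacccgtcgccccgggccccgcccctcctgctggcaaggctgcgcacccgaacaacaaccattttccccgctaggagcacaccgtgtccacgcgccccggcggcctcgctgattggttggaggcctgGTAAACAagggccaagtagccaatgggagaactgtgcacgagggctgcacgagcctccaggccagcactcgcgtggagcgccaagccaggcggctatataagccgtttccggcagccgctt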

How the data were processed

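RNA from 8 C2C12 samples was labeled with Cy3 and hybridized to one-color Agilent mouse arrays on 1 slide that was scanned once. The row of the slide was tried as a block. The intensity of each spot (the processed signal) was deposited by the authors on a linear scale, after background subtraction by Feature Extraction (version 10.7.3.1 in the submitters' processing notes, 12.0.0.7 in the file headers), and was not normalized between arrays. The flags used here (coded 0 or 1, other units) were deposited in the same files. The series table the authors deposited holds quantile-normalized intensity and served as an alternative. The mask on dim spots, quantile normalization and averaging of spots follow the study's methods. Leaving out control spots and spots flagged as outliers, and the use of limma, were chosen here. Intensities deposited by the authors were turned to log2 with no pseudocount. Group was the single term of the model (limma 3.58.1 under R 4.3.3, functions lmFit and eBayes), and p-values were adjusted over all probes tested by the Benjamini-Hochberg method.

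The 8 genes, the lists and the tests were chosen with earlier results of these data known. Besides the 8 genes and Pvt1, list genes were named where called with a change of at least 1 log2 (at most 4 per list and direction), and Akt1, Akt2, Sgk1, Nr3c1, Foxo6, Trim54 and Trim55 whatever they did. Ube4b and Bcat2 were named after their values were seen, to complete counts, and 1 list gene is not reported here by name. Of the 15 probes, 11 carried a RefSeq accession, and all 11 matched the gene table under the same symbol. Exons and UTRs were not analyzed here. "At least" folds compare the mean of the brighter group with a floor on each array of the dimmer group, which is the lowest signal of any probe well above background or the probe's own signal where that is higher. Single comparisons used an exact two-sided permutation test. What is called the methods' t-test was an unequal-variance t-test on the same values. The study used such a test for selected genes on these arrays. For fiber types its methods describe a t-test with permutation p-values and Bonferroni correction. The Benjamini-Hochberg adjustment was chosen here. Alternatives were other normalizations, filters, priors, blocks and tests, and leaving out each array. Tested on simulated data for this comparison (28649 probes, 200 changed), 64% of probes given a change of 2 log2 were recovered and 7% at 1 log2, and 4 of 75 calls were false. The simulation drew independent noise for each probe and changed far fewer probes than the 6642 called here. Its rates therefore do not give the power or the error of the calls reported. Precision is limited by the number of arrays.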

Additional observations from a re-analysis of the deposited data

Results flagged for a closer look

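A single sample lay far from the other 3 of its group for 3 of the 50 sample groups examined, and chance gives about 1 in 20. Myod1 read 12.81 in control replicate 3, against 13.57 to 13.66 in the other controls. Sgk1 read 12.37 in the same array, against 13.39 to 13.51. Irs2 read 6.64 in silenced replicate 4, against 7.62 to 7.70. Over all 96 tested list genes, which give 189 groups of 4 values, control replicate 3 stood apart for 14 genes, silenced replicate 4 for 7, control replicate 1 for 1 and silenced replicate 3 for 1. Control replicate 3 was the array with the lowest correlation with its group, and silenced replicate 4 the dimmest. Without control replicate 3, 10 list genes were higher and 13 lower.

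A signal appeared in a probe outside the tested comparison: the Trim63 probe at position 1088 read 6.59 in silenced replicate 4, where it was well above background, and reached that level on no control array. The other Trim63 probes gave no signal on that array.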

How the results depend on the processing

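The alternatives were chosen with earlier results of these data known, and the cause of each change was not tested. Over all probes, 1373 were higher and 5269 lower. Higher counts were 2165 with the 75th percentile shift, 5477 with cyclic loess, 4509 in the authors' series table, 4990 with dim spots kept, 534 with a block for slide row, 566 by the methods' t-test (Benjamini-Hochberg), 3 with Bonferroni and 659 to 3654 when 1 array was left out. Lower counts were 2572 with the slide row, 2854 and 3 by those t-tests, and 3018 to 5830 without 1 array. Member probes called higher were 3 with cyclic loess, 2 in the series table and without masking, and 0 to 1 without 1 array, the 1 being Fbxo32 without silenced replicate 4. Member probes called lower were 1 with normexp, only well-above-background spots, complete probes or a trended robust prior, 0 with the replicate block, the slide row or Bonferroni, and 0 to 2 without 1 array. Among list genes, the higher count was 9 with the 75th percentile shift and the trended robust prior, 23 with cyclic loess, the series table and no masking, 8 with normexp, 3 with the mean of all probes, 0 with Bonferroni, and 5 to 18 without 1 array, 18 without silenced replicate 4. The lower count was 18 with only well-above-background spots, 5 with the replicate block and the slide row, 19 with the trended robust prior, 17 with the mean of all probes, 0 with Bonferroni, and 6 to 13 without 1 array, 6 without control replicate 4.

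The Fbxo30 change was below 0 in all 20 alternatives. It lost its call with the replicate block (-0.85), the slide row (-0.92), Bonferroni (-0.85), and without control replicate 2 or 4 (range without 1 array -0.94 to -0.76). Foxo3 at position 2242 lost it with normexp (-0.41), the replicate block (-1.0), the slide row (-1.04), the trended robust prior and Bonferroni (both -0.98), and without control replicate 2 or 4 (range -1.08 to -0.86). It could not be tested without silenced replicate 1, 2 or 3, with complete probes or with well-above-background spots only. Fbxo32 gained a call with cyclic loess (1.22) and without silenced replicate 4 (range 0.44 to 1.28). Foxo1 at position 2466 gained one with cyclic loess (0.59), the series table (0.59) and no masking (0.58), and Foxo3 at position 6438 with the same settings (0.60, 0.54 and 0.54). Over all 20 alternatives Foxo1 at position 2466 ran from 0.14 to 0.59, and Foxo3 at position 6438 from 0.087 to 0.60. The sign turned for Foxo1 at position 4809 (0.17 with cyclic loess, 0.16 in the series table, 0.16 without masking, range without 1 array -0.24 to 0.088, the highest without silenced replicate 4), Fbxo40 (0.21 in the series table and without masking), Akt2 (-0.018 without control replicate 1, range -0.018 to 0.14), Nr3c1 (-0.017 with only well-above-background spots, range -0.20 to 0.26) and Sgk1 (0.034 with cyclic loess, 0.0018 without masking). The difference between probes gave -1.46 to -1.34 for Foxo3 without 1 array, where too few arrays remain in most cases to pass the threshold, -0.36 with its dim probe at the bound (an alternative chosen after seeing the data), and 0.33 to 0.56 for Foxo1, 0.56 without control replicate 3. Both Pvt1 probes lost their call with Bonferroni (-2.86 and -3.80) and in none of the other alternatives in which each could be tested (18 for the brightest probe, 13 for the other).

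Replicate numbers did not pair the samples: same-number deviations correlated at -0.04 to 0.22 over 25108 probes, and 4 of 8 samples correlated best with their own number. With the replicate block 5017 probes were called, against 6642 without it. Under that block the limma adjusted p was 0.0521 for Akt1, 0.0574 for Irs2, 0.0641 for Ube4b and 0.0849 for Bcat2.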
